A study of Homo sapiens with 6 samples.

Results

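MYC and 44 genes whose products act in ribosome biogenesis were followed in KYSE30 cells after RNA interference against RAB23. The 45 genes were found by exact symbol in the deposited table, which lists 58735 genes, and all 45 were present. KYSE30 is an established human line of oesophageal squamous cell carcinoma origin, and every library came from this 1 line, so the values describe 1 cell line and not tumours in general. RNA sequencing was done in 3 groups of 2 libraries: cells given a control siRNA (si-NC), cells given si-RAB23-1 and cells given si-RAB23-9. All 3 groups were transfected with HiPerFect reagent at 100 nM siRNA and taken up in Trizol near 80% confluence, so transfection is shared by the controls. By the series design the 2 libraries of each group are biological replicates and si-NC is the reference. No label says that they came from separate cultures, so p-values measure only how far these libraries spread, and that spread may be technical.

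Ribosomes are assembled in the nucleolus, where RNA polymerase I copies the ribosomal RNA genes into a long precursor. Small nucleolar ribonucleoproteins guide the chemical modification of the precursor, large assemblies cut and fold it, and the small (40S) and large (60S) subunits leave the nucleolus as separate particles. MYC, a transcription factor that binds DNA as a dimer with MAX, is known to raise the transcription of many genes at each of these steps, and its gene is often amplified or overexpressed in squamous carcinomas.

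The libraries held between 17211025 and 24178125 reads assigned to genes, recovered from the FPKM values (reads per kilobase of gene, relative to the size of the library). RAB23 was at 3.27 and 3.33 FPKM in the si-NC libraries, 1.03 and 1.10 in the si-RAB23-1 libraries, and 1.18 and 1.27 in the si-RAB23-9 libraries, so the targeted transcript was lower in all 4 libraries that received a RAB23 siRNA. Of 9 squamous markers 7 reached 1 FPKM in at least 1 library, while KRT5 and PKP1 did not. No columnar or leukocyte marker reached 1 FPKM (0 of 6 each), and 1 of 6 fibroblast markers (COL1A1) and 1 of 4 endothelial markers (CDH5) did. COL1A2, DCN, LUM and KDR were listed at 0 in every library. The summed squamous markers ranged from 364 to 378 FPKM in si-NC, from 406 to 420.1 in si-RAB23-1 and from 356 to 362 in si-RAB23-9 libraries. The summed endothelial markers were at 3.77 to 3.79, 1.62 to 2.09 and 2.73 to 3.16 FPKM in the same order, almost all of it CDH5, with PECAM1 at most at 0.0396 FPKM. The squamous sum thus stood highest in the libraries in which most of the genes described below were also highest. Most of it was SFN (262 to 311 FPKM), with log2 fold changes of -0.02 with si-RAB23-1 and -0.19 with si-RAB23-9. By limma (adjusted p under 0.05) 5 of 7 tested squamous markers were higher and 0 lower with si-RAB23-1. Those higher were KRT6A (1.04), DSG3 (0.91), SOX2 (0.70), KRT17 (0.44) and TP63 (0.40), while KRT14 (0.38) and SFN were not called. With si-RAB23-9, 2 were higher (SOX2, 0.73, and KRT6A, 0.35) and 2 lower (TP63, -0.28, and SFN). Over all genes tested these shares were 8.13%, 7.26%, 7.56% and 5.69%. The part of these markers in the results below was not tested. FPKM is a relative measure, and in bulk RNA a change in the number of cells of a type and a change in RNA per cell cannot be told apart.

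With si-RAB23-1 the ribosome biogenesis genes were higher as a rule. Of the 45 genes 44 passed the filter on low values (1 FPKM or more in 2 or more libraries) and were tested with limma on log2(FPKM + 1). Of these 44, 22 rose and 0 fell (p under 0.05 after Benjamini-Hochberg adjustment across the 14352 genes tested), with MYC, NOLC1 and ODC1 showing the largest changes. Among all genes tested 8.13% were called higher and 7.26% lower in that comparison. The members were chosen with earlier results of these data known, so this contrast is a description and not a test of the set. At an unadjusted p under 0.05, and by voom on recovered reads, 0 members were lower as well: the 2 members with a negative change were PPAN (-0.03) and NOP10 (-0.01). The median log2 fold change of the 44 genes was 0.21, against 0.01 for all genes tested, and 42 of the 44 changes were above 0, as were 51.9% of those of all genes tested. Here and below, called, rose and fell refer to limma unless voom is named. With median-of-ratios library sizes, voom on recovered reads called 33 members higher, where it called 13.1% of all genes higher. The 11 members that limma did not call were DDX18, GNL3, WDR12, POLR1A, LYAR, NCL, NPM1, NOP58, BYSL, NOP14 and PNO1. In 41 of the 44 both si-RAB23-1 libraries lay above both si-NC libraries and in 0 both lay below, while among all genes tested 31.7% lay above and 28.5% below. The exceptions, with overlapping libraries, were PPAN, GAR1 and NOP10. The count of calls depended on single libraries: leaving out si-NC replicate 1 gave 5 members called higher, leaving out the other control gave 6 and leaving out si-RAB23-1 replicate 1 gave 11, where 1.43%, 1.21% and 3.70% of all genes were called higher.

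With si-RAB23-9 fewer of these genes changed. Of the 44 tested, 6 rose (MYC, NOLC1, TCOF1, NOP56, FBL and DKC1) and 1 fell (DDX21), by limma adjusted p under 0.05. Over all genes tested 7.56% were called higher and 5.69% lower. The median log2 fold change was 0.09, against 0.01 for all genes tested, and 35 of 44 changes were above 0, as were 51.5% of those of all genes tested. By voom 11 members were higher, against 12.6% of all genes, and those not called by limma were BOP1, POLR1B, UBTF, NOP14 and WDR43. Both si-RAB23-9 libraries lay above both si-NC libraries for 31 members and below for 5 (DDX18, DDX21, NPM1, GAR1 and UTP20), against 32.5% and 28.7% of all genes tested. Both comparisons use the same si-NC libraries. Without either si-NC library or either si-RAB23-9 library, 2 members were called higher in each of those 4 fits, in which 0.996% to 1.30% of all genes were. Leaving out si-NC replicate 1, si-NC replicate 2 or si-RAB23-9 replicate 2 also left 0 members called lower, with 0.885%, 0.843% and 0.801% of all genes called lower.

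Compared directly, 11 of the 44 members were lower and 1 was higher with si-RAB23-9 than with si-RAB23-1. DDX21, ODC1, MYC, RRP12, PNO1, NOP16, DDX18, EBNA1BP2, HEATR1, UTP20 and PES1 were lower with si-RAB23-9 than with si-RAB23-1 (11 members, background 9.89%). TCOF1 was higher (1 member, background 11.1%). The median difference, si-RAB23-9 minus si-RAB23-1, was -0.12 over the members and 0.000234 over all genes tested. The si-RAB23-9 libraries lay below both si-RAB23-1 libraries for 28 members and above for 5, against 31.2% and 32.1% of all genes tested. By group mean, 35 of the 44 members were highest with si-RAB23-1, 8 with si-RAB23-9 and 1 (NOP10) with si-NC, and for 27 the si-RAB23-9 mean lay between the other two. Leaving out single libraries changed the number called lower to 5 (si-RAB23-9 replicate 1), 4 (si-RAB23-9 replicate 2) and 6 (si-RAB23-1 replicate 1), in fits that called 2.88%, 2.30% and 4.27% of all genes lower, and TCOF1 was no longer called in the first 2 of these fits.

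**Figure D1:**
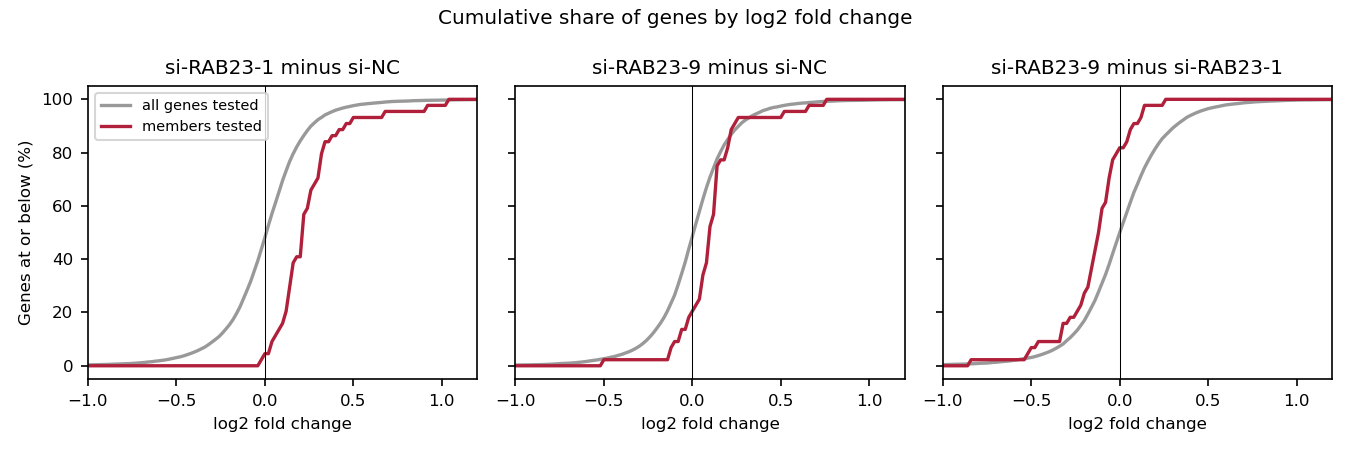
Cumulative share of genes (y axis, percent) at or below each log2 fold change (x axis, log2(FPKM + 1) scale) for the 44 tested members (red) and all 14352 genes tested (grey), in the 3 comparisons. The red curve lies to the right of the grey one with si-RAB23-1 (medians 0.21 and 0.01), less so with si-RAB23-9 (0.09 and 0.01), and to the left when si-RAB23-9 is set against si-RAB23-1 (-0.12 and 0.000234).

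MYC itself was higher with both siRNAs, and more so with si-RAB23-1. MYC (ENSG00000136997, GRCh38 chromosome 8, 127735434 to 127741434, plus strand) was at 23.1 and 22.1 FPKM in the si-NC libraries, 50.2 and 44.3 in the si-RAB23-1 libraries, and 34.1 and 31.2 in the si-RAB23-9 libraries. The 3 groups did not overlap, with si-RAB23-1 highest, si-RAB23-9 in the middle and si-NC lowest. Group means were 22.6 ± 0.745, 47.2 ± 4.18 and 32.7 ± 2.01 FPKM (SD, n = 2 each), on 1295 to 2954 reads per library. The log2 fold change was 1.03 with si-RAB23-1 (SE 0.0731, limma adjusted p = 0.00272), 2.09 times the control mean, and 0.51 with si-RAB23-9 (limma adjusted p = 0.012), 1.45 times. The siRNAs differed by -0.52 (limma adjusted p = 0.0091). The si-RAB23-1 call passed with any 1 library left out. Without either control or either si-RAB23-9 library the si-RAB23-9 call did not pass (change 0.45 to 0.57, limma adjusted p at most 0.0824), and the difference between the siRNAs without si-RAB23-9 replicate 2 (limma adjusted p = 0.0596).

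ODC1 encodes ornithine decarboxylase, the first enzyme of polyamine synthesis and a textbook MYC target. ODC1 (ENSG00000115758, chromosome 2, 10439968 to 10448504, minus strand) stood at 45.3 and 46.9 FPKM in the si-NC libraries, 75.6 and 72.0 in the si-RAB23-1 libraries, and 50.5 and 50.6 in the si-RAB23-9 libraries. Both si-RAB23-1 libraries were far above the other 4, and the si-RAB23-9 libraries lay just above si-NC. It rose by 0.67 with si-RAB23-1 (SE 0.0379, limma adjusted p = 0.00192), 1.6 times the control. Its change of 0.13 with si-RAB23-9 missed the threshold (limma adjusted p = 0.0791). The difference between the siRNAs was -0.54 (limma adjusted p = 0.0016) and passed, like the rise with si-RAB23-1, in all 6 fits with 1 library left out.

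**Figure D2:**
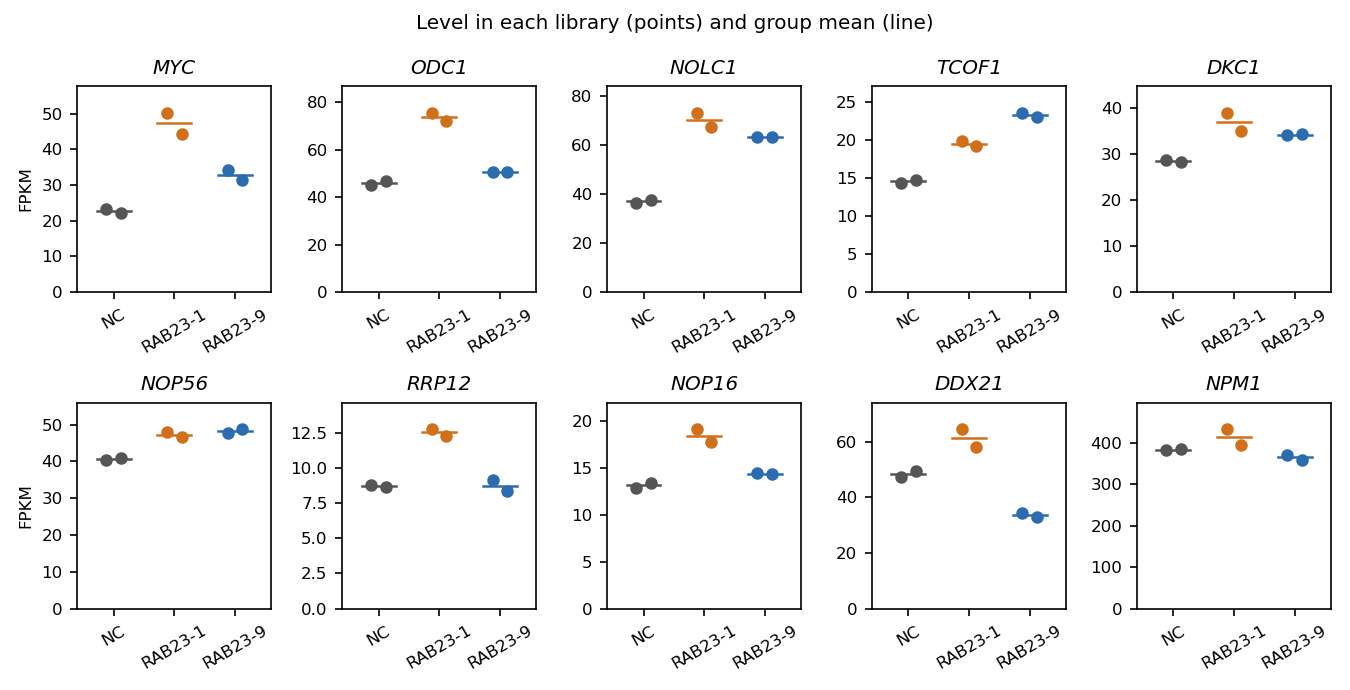
FPKM (y axis, linear from 0) of 10 members in each of the 6 libraries (points) with the mean of each group of 2 (line), in the control and in both RAB23 siRNA groups. MYC, ODC1, RRP12 and NOP16 were highest with si-RAB23-1, NOLC1 was raised with both siRNAs (means 37.0, 70.1 and 63.2 FPKM), TCOF1 was highest with si-RAB23-9 (23.4 FPKM), and DDX21 was lowest with si-RAB23-9 (33.7 FPKM).

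The promoters of many members carry the E-box CACGTG, the canonical DNA word bound by MYC with MAX, which reads the same on both strands. RefSeq promoter windows (GRCh38.p14, 250 bases before to 50 after an annotated start) were matched by symbol for 36 of the 45 members, with 46 windows in all. NOLC1, TCOF1, MYC, RRP12, NOP58, BOP1, RRS1, RRP1B and DDX18 had no entry. Of the 36 matched members 18 (50%) held the hexamer in at least 1 window, against 2396 of all 27305 symbols in the promoter table (8.78%) and 1163 of the 9066 tested genes with a window (12.8%). Counted by window, 41.3% of the members' windows held it, against 7.26% of all windows and 9.58% of those of tested genes. The members were picked as MYC and ribosome biogenesis genes, and these shares say nothing about RAB23. The 4 windows printed here are those of ODC1, with 2 copies, of RRP9 and UTP20, both called higher with si-RAB23-1, and of DDX21, which the siRNAs changed in opposite directions. Capitals mark the E-box. The windows are ODC1 chr2:10447963-10448262 (minus strand), RRP9 chr3:51941855-51942154 (minus strand), UTP20 chr12:101279855-101280154 (plus strand) and DDX21 chr10:68956397-68956696 (plus strand), each written 5′ to 3′ on the strand of its gene.
ODC1: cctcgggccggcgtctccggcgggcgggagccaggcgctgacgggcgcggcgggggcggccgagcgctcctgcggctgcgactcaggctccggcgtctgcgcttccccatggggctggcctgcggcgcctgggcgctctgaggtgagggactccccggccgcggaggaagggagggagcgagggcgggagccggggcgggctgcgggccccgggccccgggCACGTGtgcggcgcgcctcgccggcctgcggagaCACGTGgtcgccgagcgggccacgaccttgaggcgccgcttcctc
RRP9: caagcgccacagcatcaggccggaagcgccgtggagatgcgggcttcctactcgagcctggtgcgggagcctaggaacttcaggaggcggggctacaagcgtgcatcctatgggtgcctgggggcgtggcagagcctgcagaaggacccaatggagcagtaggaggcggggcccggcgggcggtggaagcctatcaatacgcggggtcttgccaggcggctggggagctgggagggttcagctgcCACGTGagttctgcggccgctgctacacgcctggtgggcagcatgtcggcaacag
UTP20: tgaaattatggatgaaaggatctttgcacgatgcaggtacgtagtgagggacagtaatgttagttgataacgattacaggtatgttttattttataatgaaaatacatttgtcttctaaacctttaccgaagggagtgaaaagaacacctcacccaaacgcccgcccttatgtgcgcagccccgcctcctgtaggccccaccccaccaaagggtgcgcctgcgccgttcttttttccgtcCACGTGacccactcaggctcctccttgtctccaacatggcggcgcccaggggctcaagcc
DDX21: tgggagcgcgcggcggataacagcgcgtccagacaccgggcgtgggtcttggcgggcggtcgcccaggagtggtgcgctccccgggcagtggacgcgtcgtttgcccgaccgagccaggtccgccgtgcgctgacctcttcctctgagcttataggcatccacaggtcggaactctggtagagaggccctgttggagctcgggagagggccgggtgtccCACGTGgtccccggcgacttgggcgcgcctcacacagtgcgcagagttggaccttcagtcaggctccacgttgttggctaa
Counted from the annotated start to its first base, the hexamer lies at -29 and 5 in ODC1, at -5 in RRP9, at -10 in UTP20 and at -31 in DDX21. A further window of ODC1 and one of DDX21, at other annotated starts, hold none. A match says only that these letters are in the window, and binding was not measured.

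Members with and without the E-box were set side by side, with no test of the difference. Of 17 tested members with the hexamer 9 were called higher with si-RAB23-1 (median log2 fold change 0.22), and of 18 without it 8 were (median 0.15). With si-RAB23-9 the counts were 1 higher and 1 lower of 17 with it, and 2 higher of 18 without it, with medians of 0.09 in both. Across all tested genes with a window, 11.8% of those with the hexamer and 9.34% of those without were called higher with si-RAB23-1; for si-RAB23-9 these shares were 9.63% and 8.95%. NOP10 holds 2 copies and its log2 fold changes were -0.01 and -0.07, while NOP16, without one, rose by 0.46 with si-RAB23-1.

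**Figure D3:**
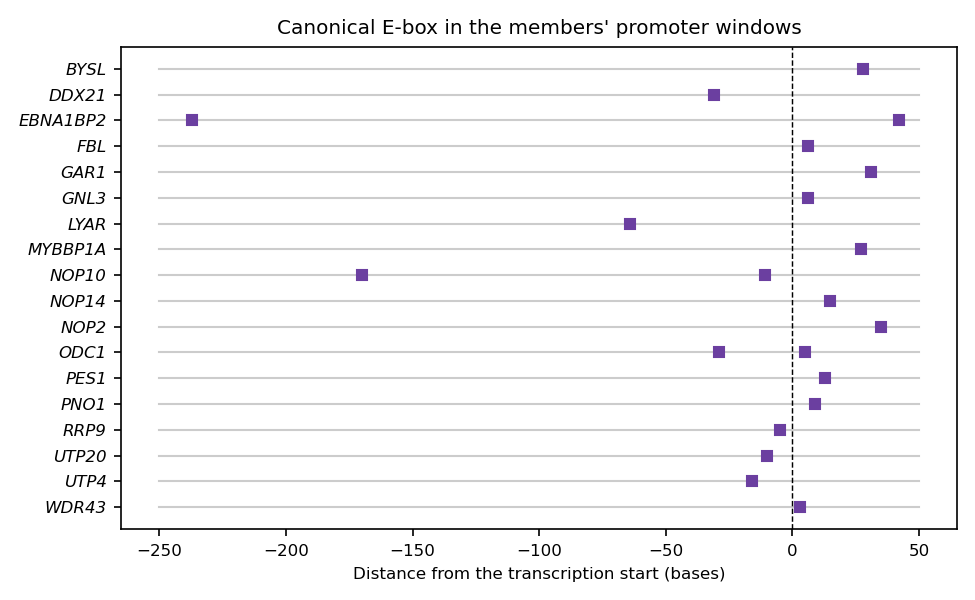
Position of each CACGTG (squares) in the promoter windows (grey lines, 250 bases before to 50 after the start, dashed at the start) of the 18 members that hold it; x axis, distance in bases. Of the 21 squares 18 lie within 50 bases of the start, ODC1 and NOP10 have 2 in 1 window, and the 2 squares of EBNA1BP2 come from windows at different annotated starts.

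Among genes of RNA polymerase I and rRNA gene transcription, NOLC1 and TCOF1 rose with both siRNAs. In this group of 7 members 4 rose with si-RAB23-1 and 2 with si-RAB23-9, and all 7 changes were above 0 in both comparisons (medians 0.16 and 0.19). Over all genes tested 8.13% and 7.56% rose, and 51.9% and 51.5% of changes were above 0. NOLC1 and TCOF1 encode related nucleolar phosphoproteins, Nopp140 and treacle, that bind RNA polymerase I and act in rRNA transcription and modification. NOLC1 (ENSG00000166197, chromosome 10, 102152176 to 102163871, plus strand) was at 36.2 and 37.7 FPKM in the si-NC libraries, 73.1 and 67.2 in the si-RAB23-1 libraries, and 63.4 and 63.1 in the si-RAB23-9 libraries. All 4 libraries with a RAB23 siRNA lay above both controls, and the si-RAB23-9 pair lay below the si-RAB23-1 pair. The log2 fold changes were 0.90 and 0.76 (SE 0.0488, limma adjusted p = 0.00184 and 0.00229), or 1.90 and 1.71 times the control. The difference between the siRNAs, -0.15, was not called (limma adjusted p = 0.0888).

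TCOF1 was the 1 member with a higher level under si-RAB23-9 that passed the test between the siRNAs. TCOF1 (ENSG00000070814, chromosome 5, 150357629 to 150400308, plus strand) was at 14.4 and 14.7 FPKM in the si-NC libraries, 19.9 and 19.2 in the si-RAB23-1 libraries, and 23.6 and 23.1 in the si-RAB23-9 libraries, so the 3 groups were fully separate. It rose by 0.40 and 0.64 (SE 0.0385, limma adjusted p = 0.00445 and 0.00199), and the siRNAs differed by 0.24 (limma adjusted p = 0.0123). Its changes against si-NC passed in all 6 fits with 1 library left out, as did those of NOLC1. Without either si-RAB23-9 library the difference between the siRNAs did not pass (up to 0.0811 by limma's adjusted p). POLR1B, the second largest subunit of RNA polymerase I, rose by 0.33 with si-RAB23-1 (limma adjusted p = 0.0275), and its change with si-RAB23-9 was 0.22 (limma adjusted p = 0.0832). MYBBP1A, which encodes a nucleolar MYB-binding protein that takes part in rRNA synthesis, rose by 0.16 with si-RAB23-1. Both calls depended on single libraries: POLR1B, lost on leaving out any si-NC or si-RAB23-1 library, passed in 2 of the 6 fits with 1 library left out and MYBBP1A in 0. The largest subunit gene POLR1A (0.14 and 0.08), the shared subunit gene POLR1C (0.02 and 0.09) and UBTF (0.07 and 0.19), whose product opens rRNA genes for transcription, were not called by limma with either siRNA. Voom called POLR1A with si-RAB23-1 (voom adjusted p = 0.0302) and UBTF with si-RAB23-9 (voom adjusted p = 0.00554).

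Core proteins of the small nucleolar ribonucleoproteins rose in part. The box C/D particles, which direct 2′-O-methylation of rRNA, are built on NOP56, NOP58 and the methyltransferase fibrillarin (FBL). NOP56 was at 40.5 and 41.0 FPKM in the si-NC libraries, 48.0 and 46.6 in the si-RAB23-1 libraries, and 47.7 and 48.7 in the si-RAB23-9 libraries. The RAB23 siRNAs overlapped with each other and lay above both controls. NOP56 rose by 0.21 and 0.24 (limma adjusted p = 0.0158 and 0.0117), and FBL by 0.16 and 0.20 (limma adjusted p = 0.0492 and 0.0277). NOP58, which pairs with NOP56, had changes of 0.16 and 0.08 that did not pass limma (limma adjusted p = 0.0592 and 0.276), and voom called the first (voom adjusted p = 0.0257). The calls of NOP56 and FBL were small and were lost without either si-NC library in both comparisons (limma adjusted p up to 0.0983 for NOP56 and 0.206 for FBL). They were also lost without si-RAB23-1 replicate 1 in the comparison with si-RAB23-1, without either si-RAB23-9 library in that with si-RAB23-9, and, for FBL with si-RAB23-1, without either si-RAB23-9 library.

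The box H/ACA particles convert uridines of rRNA to pseudouridine and share their 4 core proteins with telomerase. DKC1, the pseudouridine synthase dyskerin, was at 28.8 and 28.4 FPKM in the si-NC libraries, 39.0 and 35.1 in the si-RAB23-1 libraries, and 34.1 and 34.5 in the si-RAB23-9 libraries. It rose by 0.36 and 0.25 (SE 0.0543, limma adjusted p = 0.0133 and 0.0365). Without either si-NC library neither call passed (limma adjusted p up to 0.0854 and 0.167), and that with si-RAB23-9 also failed without either si-RAB23-9 library. NHP2 rose by 0.16 with si-RAB23-1 (limma adjusted p = 0.0475), passed in 0 of the 6 fits with 1 library left out, and changed by 0.13 with si-RAB23-9 without passing. GAR1 (0.05 and -0.12) and NOP10 (-0.01 and -0.07) were not called, so 2 of the 4 core genes were called higher with si-RAB23-1 and 1 with si-RAB23-9. Over all genes tested these shares were 8.13% and 7.56%.

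Several genes of the small subunit processome and of 40S maturation rose with si-RAB23-1, and limma called none with si-RAB23-9. The processome is the large particle that forms on the growing precursor and releases the 40S part. Of 13 members 6 rose with si-RAB23-1 (median 0.21), 0 rose with si-RAB23-9 (median 0.05), and 4 were lower with si-RAB23-9 than with si-RAB23-1. Over all genes tested these shares were 8.13%, 7.56% and 9.89%. At an unadjusted p under 0.05, 2 were higher with si-RAB23-9, with no share over all genes counted. Voom on recovered reads also called 2, against 12.6% of all genes. RRP12 encodes a HEAT-repeat protein needed for the maturation and export of both subunits. RRP12 (ENSG00000052749, chromosome 10, 97356358 to 97426076, minus strand) was at 8.77 and 8.65 FPKM in the si-NC libraries, 12.8 and 12.3 in the si-RAB23-1 libraries, and 9.13 and 8.39 in the si-RAB23-9 libraries. The si-RAB23-9 libraries fell on either side of the controls, and the si-RAB23-1 libraries were above all of them. RRP12 rose by 0.48 with si-RAB23-1 (SE 0.0518, limma adjusted p = 0.00573), 1.44 times the control, and its change with si-RAB23-9 was 0.01 (limma adjusted p = 0.954). The siRNAs differed by -0.47 (limma adjusted p = 0.00451), and this passed with any 1 library left out, while the rise with si-RAB23-1 was lost without si-NC replicate 2 (limma adjusted p = 0.0519).

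The other 5 members of this group that rose with si-RAB23-1 were RRP9 (0.32), HEATR1 (0.29), WDR43 (0.26), UTP20 (0.21) and TSR1 (0.20). RRP9 is a protein of the U3 small nucleolar RNA particle, HEATR1, WDR43 and UTP20 are processome components, and TSR1 is a GTPase-like factor of the late 40S particle. All 5 calls were lost on leaving out either control or si-RAB23-1 replicate 1, and those other than HEATR1 also on leaving out either si-RAB23-9 library (TSR1 on leaving out any library), with limma adjusted p between 0.0502 and 0.183. HEATR1 and UTP20 were also lower with si-RAB23-9 than with si-RAB23-1 (-0.25 and -0.24), which held in 3 and 1 of the 6 fits with 1 library left out. PNO1, which acts with the endonuclease NOB1 at the last cut of 18S rRNA, had changes of 0.21 and -0.13 against si-NC, neither called by limma and the first called by voom (voom adjusted p = 0.0347), and a difference between the siRNAs of -0.34 (limma adjusted p = 0.0254) that was lost without any 1 of the si-RAB23-1 or si-RAB23-9 libraries (at most 0.129). The processome genes NOP14 (0.22 and 0.20), WDR75 (0.14 and 0.04), DDX10 (0.13 and 0.05) and UTP4 (0.11 and -0.01), the 40S factor gene BYSL (0.21 and 0.06) and NOB1 (0.12 and 0.05) did not pass limma with either siRNA. Voom passed NOP14 with both (voom adjusted p = 0.00683 and 0.0164) and BYSL with si-RAB23-1 (voom adjusted p = 0.0294).

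Genes of 60S assembly likewise rose in part with si-RAB23-1. Of 12 members 11 were tested, of which 5 rose with si-RAB23-1 (median 0.26), 0 with si-RAB23-9 (median 0.12), and 4 were lower with si-RAB23-9 than with si-RAB23-1. Over all genes tested these shares were 8.13%, 7.56% and 9.89%. With si-RAB23-9, voom called 1 higher, where it called 12.6% of all genes higher. At an unadjusted p under 0.05, 5 were higher, with no share over all genes counted. NOP16 encodes a nucleolar protein of early 60S particles and is known as a MYC-induced gene. NOP16 (ENSG00000048162, chromosome 5, 176383938 to 176388975, minus strand) was at 12.8 and 13.4 FPKM in the si-NC libraries, 19.1 and 17.7 in the si-RAB23-1 libraries, and 14.4 and 14.3 in the si-RAB23-9 libraries. Its 3 groups did not overlap, with the si-RAB23-9 libraries close to the controls. NOP16 rose by 0.46 with si-RAB23-1 (SE 0.0496, limma adjusted p = 0.00573), and its change with si-RAB23-9 was 0.12 (limma adjusted p = 0.167). The rise was lost without si-NC replicate 1 (limma adjusted p = 0.0504), and the difference between the siRNAs (-0.33) without either si-RAB23-9 library (at most 0.0698 by limma's adjusted p). The gene overlaps HIGD2A on the other strand, which measured 57.1 and 56.1 FPKM in the controls against 49.97 and 51.5 after si-RAB23-1. Without known strandedness, reads in the overlap cannot be told apart. Other members overlap expressed genes on the other strand too. Among them are POLR1C (YIPF3 and XPO5, means of 26.2 and 11.8 FPKM), UTP4 (CHTF8, 43.4) and EBNA1BP2 (TMEM125, 19.2).

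NIP7 (0.31), PES1 (0.30), EBNA1BP2 (0.26) and BOP1 (0.26) were the other 60S genes that rose with si-RAB23-1. PES1 and BOP1 form, with WDR12, the PeBoW complex that acts on the precursor of 28S and 5.8S rRNA, and WDR12 itself had a change of 0.23 just outside the threshold (limma adjusted p = 0.0507), which voom called (voom adjusted p = 0.00409). EBNA1BP2, a nucleolar assembly factor, was at 50.1 and 49.0 FPKM in the si-NC libraries, 58.9 and 60.2 in the si-RAB23-1 libraries, and 49.1 and 47.9 in the si-RAB23-9 libraries, and its difference between the siRNAs (-0.29, limma adjusted p = 0.00501) passed with any 1 library left out. PES1 (-0.21) and the RNA helicase gene DDX18 (-0.32) were lower with si-RAB23-9 than with si-RAB23-1 as well. PES1 lost this call without any 1 of the si-RAB23-1 or si-RAB23-9 libraries, and DDX18 passed only without si-RAB23-1 replicate 2. The rises of NIP7, BOP1 and EBNA1BP2 were lost without either control (limma adjusted p at most 0.091), and that of PES1 without si-NC replicate 1. DDX18 (0.21 and -0.11), the stem cell GTPase gene GNL3 (0.26 and 0.14), the 5S particle factor gene RRS1 (0.04 and 0.14), RRP1B (0.09 and 0.14) and PPAN (-0.03 and 0.10) were not called against si-NC by limma. Voom called DDX18 and GNL3 higher with si-RAB23-1 (voom adjusted p = 0.00518 and 0.00242).

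NOP2, which encodes an rRNA cytosine methyltransferase, was the 1 member that was not tested. It was at 0.456 and 0.524 FPKM in the si-NC libraries, 0.412 and 0.499 in the si-RAB23-1 libraries, and 0.373 and 0.493 in the si-RAB23-9 libraries, on 32 to 52 reads, and the groups overlapped. NOP2 overlaps the annotated gene AC006064.6 on the same strand, which was listed at 0 in every library, so the level given here is uncertain. PPAN lies likewise within the readthrough gene PPAN-P2RY11, listed at 0.

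The siRNAs changed DDX21 in opposite directions. DDX21 encodes a nucleolar RNA helicase that joins RNA polymerase I transcription to rRNA processing. DDX21 (ENSG00000165732, chromosome 10, 68956128 to 68985073, plus strand) was at 47.2 and 49.4 FPKM in the si-NC libraries, 64.4 and 58.0 in the si-RAB23-1 libraries, and 34.5 and 32.9 in the si-RAB23-9 libraries. The si-RAB23-1 libraries were highest, si-NC in the middle and si-RAB23-9 lowest, with no overlap. It rose by 0.34 with si-RAB23-1 (SE 0.0592, limma adjusted p = 0.0199) and fell by 0.51 with si-RAB23-9 (limma adjusted p = 0.0076), that is to 1.27 and 0.699 times the control. The difference between the siRNAs, -0.84 (limma adjusted p = 0.0016), had the largest size of any member and passed in all 6 fits with 1 library left out. Against si-NC the rise was lost without either si-NC library or si-RAB23-1 replicate 1 (limma adjusted p up to 0.111), and the fall without either si-NC library or si-RAB23-9 replicate 2 (limma adjusted p up to 0.0658).

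DDX21 carries in its 3′ UTR a word that an earlier analysis of these same data had singled out among genes lowered by si-RAB23-9. Each 3′ UTR was taken as the longest annotated for a protein-coding transcript in GENCODE 29, for 44 members and 10892 tested genes. The word AAGTTAA occurred in 2 of the 44 members (4.55%), DDX21 and LYAR, against 16.9% of the tested genes. GACATAT, singled out in the same way for si-RAB23-1, occurred in 1 member (DDX10) against 7.70%, and TCGGAGA in 2 (NOLC1 and NOP10) against 2.24%. These shares were not matched for the length of the 3′ UTR. The sites of DDX21 and NOLC1 are shown with 11 bases on either side, 5′ to 3′ as DNA, with the word in capitals. They lie at chr10:68982877-68982905 and chr10:68983217-68983245 (DDX21) and chr10:102162293-102162321 (NOLC1), all on the plus strand of GRCh38.
DDX21 first site: tttttcatgcaAAGTTAAaagcacattgt
DDX21 second site: tgagcctttggAAGTTAAggtttcctcag
NOLC1: aagggtgatgaTCGGAGActacttacttt
The words were found in these data, so their presence in DDX21 or NOLC1 supports nothing further. The siRNA sequences were not used here. LYAR, with 1 copy of AAGTTAA, had changes of 0.30 and 0.15, neither called by limma and the first called by voom (voom adjusted p = 0.00791), and NOP10, with TCGGAGA like NOLC1, had changes of -0.01 and -0.07.

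The most abundant nucleolar genes had small changes, on which the tests differed. NPM1, which encodes the nucleolar chaperone nucleophosmin, had the highest mean of the members, at 381 and 385 FPKM in the si-NC libraries, 432 and 394 in the si-RAB23-1 libraries, and 371 and 359 in the si-RAB23-9 libraries. The si-RAB23-1 libraries lay above the controls and the si-RAB23-9 libraries below, but neither change passed limma (0.11 and -0.07, limma adjusted p = 0.197 and 0.392), while voom called NPM1 higher with si-RAB23-1 (voom adjusted p = 0.0416). NCL, the gene of nucleolin, which binds rRNA precursors, was at 137 and 139.9 FPKM in the control libraries, 156 and 148 in the si-RAB23-1 libraries, and 146 in both si-RAB23-9 libraries. Its changes of 0.13 and 0.08 were not called by limma, and voom called the first (voom adjusted p = 0.00614). Of the 4 members in this role group limma called 1 (DDX21) higher with si-RAB23-1 and 1, again DDX21, lower with si-RAB23-9, while voom called all 4 higher with si-RAB23-1. Over all genes tested limma called 8.13% higher with si-RAB23-1 and 5.69% lower with si-RAB23-9, and voom called 13.1% higher with si-RAB23-1.

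**Figure D4:**
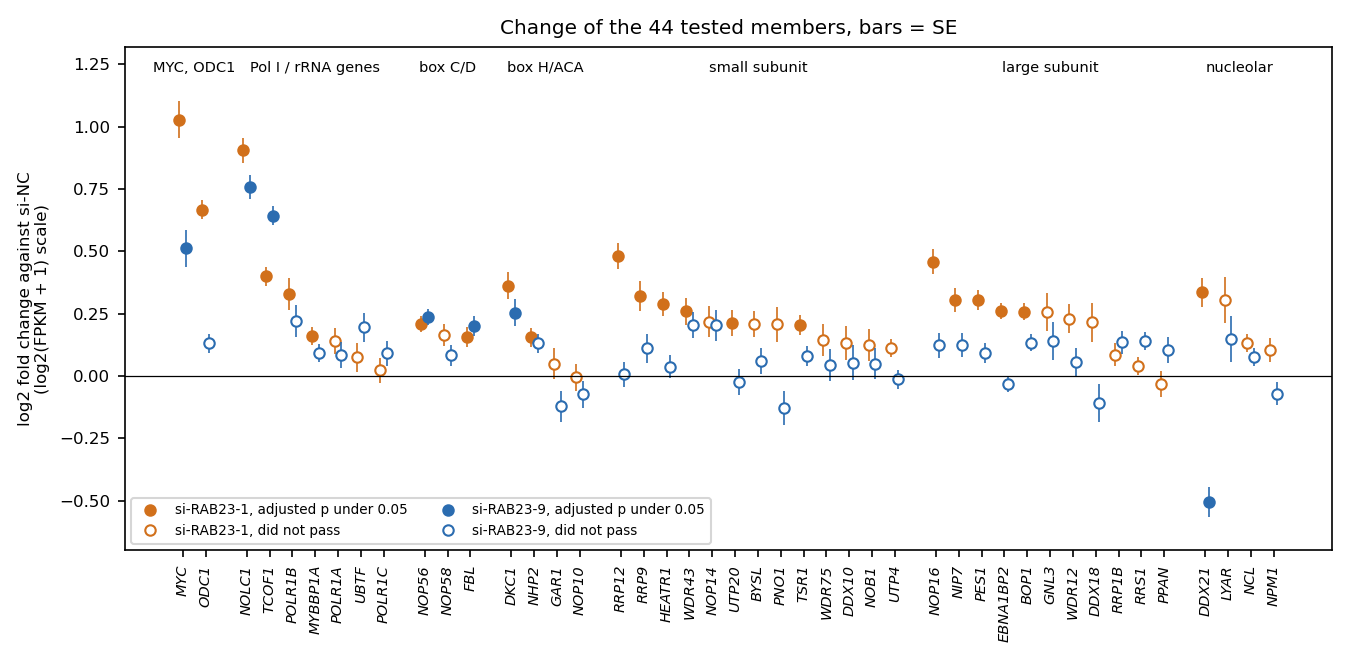
Log2 fold change against si-NC (y axis, log2(FPKM + 1) scale, bars = SE) of the 44 tested members, ordered by role, for si-RAB23-1 (orange) and si-RAB23-9 (blue); filled points passed limma at an adjusted p under 0.05. There are 22 filled orange points, all above 0, and 7 filled blue points, of which DDX21 at -0.51 lies below 0.

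The libraries of si-RAB23-1 were less alike than those of the other groups, for these genes and over all genes tested. Replicate 1 was above replicate 2 in 37 of 44 members with si-RAB23-1, in 17 with si-NC and in 26 with si-RAB23-9. The median distance between the libraries of a group over the members was 0.0827 on the log2 scale with si-RAB23-1, 0.0358 with si-NC and 0.0379 with si-RAB23-9. Over all genes tested these distances were 0.0909, 0.0655 and 0.0659 in the same order, and replicate 1 of si-RAB23-1 was the higher one for 53.1%. For MYC, NOLC1, DDX21 and NPM1 the second si-RAB23-1 library lay closer to the controls than the first.

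Partners and regulators of MYC did not move as a block. Of 22 tested genes of the MYC network, 2 were called higher and 3 lower with si-RAB23-1 (median 0.01), and 1 higher and 0 lower with si-RAB23-9 (median 0.04; also 0 lower at an unadjusted p under 0.05 and by voom). The antagonist MXD4, which competes with MYC for MAX, went from 7.25 and 7.13 FPKM in the controls to 4.14 and 5.24 after si-RAB23-1, a fall of 0.53 on the log2 scale. Of the same family, MXD1 fell by 0.26 and MXI1 rose by 0.24 with si-RAB23-1, and MXD3 (-0.02) was not called. AURKA, a mitotic kinase that stabilises MYC proteins, fell by 0.38 with si-RAB23-1. WDR5, a chromatin partner of MYC, rose by 0.17 and 0.32.

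Ribosome assembly genes outside the 45 were counted in 5 further lists. In the list of other small subunit genes 10 of 43 tested rose and 0 fell with si-RAB23-1 (median 0.10; 2 lower at an unadjusted p under 0.05, 1 by voom), against 2 higher and 2 lower with si-RAB23-9 (median -0.01). The helicase gene DHX37 rose by 0.79 and 0.44, from 7.93 and 7.98 FPKM with si-NC to 14.1 and 14.8 and to 10.8 and 11.6. In the list of other 60S genes 13 of 52 rose and 0 fell with si-RAB23-1 (median 0.13; 2 lower at an unadjusted p under 0.05, 2 by voom), with MAK16 (0.48) and the GTPase gene GTPBP4 (0.44) changing most among those called. With si-RAB23-9 1 rose (RRP1, 0.21) and 2 fell (NSA2, -0.24, and EIF6, -0.21). Other RNA polymerase I genes had 2 of 19 higher with si-RAB23-1 (CD3EAP, 0.34, and TAF1D, 0.25) and 1 with si-RAB23-9 (CD3EAP, 0.34). None was called lower by limma (1 and 2 at an unadjusted p under 0.05, and the same numbers by voom). Of 24 snoRNP assembly and snoRNA host genes 3 rose and 1 fell (ZNHIT6, -0.37) with si-RAB23-1, and limma called 0 in either direction with si-RAB23-9 (9 higher and 1 lower at an unadjusted p under 0.05, 3 and 1 by voom). Of 17 genes of the RNA exosome and rRNA trimming, 3 rose and 1 fell with si-RAB23-1, led by EXOSC5 (0.47) and by the exonuclease gene ERI1 (-0.86), and 2 rose and 1 fell with si-RAB23-9.

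Genes known as MYC targets outside the nucleolus were mixed. Of 47 tested 9 rose and 4 fell with si-RAB23-1, and 8 rose and 4 fell with si-RAB23-9, with medians of 0.10 in both. HSPD1, the gene of a mitochondrial chaperonin, rose by 0.52 with si-RAB23-1, and the glutamine transporter gene SLC1A5 by 0.33 with si-RAB23-9. LDHA (-0.22) and CDK4 (-0.21) fell with si-RAB23-1, and HK2 (-0.31) and SLC7A5 (-0.28) with si-RAB23-9. Of 17 genes reported as repressed by MYC, 5 rose and 5 fell with si-RAB23-1 and 1 rose and 6 fell with si-RAB23-9. Cyclin D1 (CCND1) fell by 0.94 and 0.56, and the cell cycle inhibitor gene CDKN1A by 0.66 with si-RAB23-1, while the matrix gene THBS1 rose by 0.99 with si-RAB23-1. The lists were counted without a test of the list. Each limma count stands against 8.13% higher and 7.26% lower (si-RAB23-1) or 7.56% higher and 5.69% lower (si-RAB23-9) over all genes tested. Voom counts stand against 13.1% higher and 13.3% lower (si-RAB23-1) or 12.6% higher and 11.2% lower (si-RAB23-9). No such share was counted at an unadjusted p.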

How the data were processed

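The authors deposited 1 table of FPKM values per gene and library, with gene lengths and coordinates. Per the submitters' processing notes, the tools included STAR 2.5.1b, Trimmomatic 0.36, edgeR 3.8.5, RSEM 1.2.29 and FastQC, and the build hg19; what each did is not given in the sources used here. Gene starts and ends equal those of GENCODE 29 on GRCh38. FPKM multiplied by gene length gave whole reads for 100% of values within 0.01 of a read, so the reads assigned to genes are known. Reads outside the listed genes are not. The FPKM denominator was 0.963 and 0.976 of the assigned total in the si-RAB23-1 libraries, and 0.985 to 0.990 in those of si-NC and si-RAB23-9. FPKM with si-RAB23-1 is thus slightly raised against a share of that total. With library totals, voom called 28 members higher with si-RAB23-1, against 11.3% of all genes.

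Genes with 1 FPKM or more in 2 or more libraries were tested with limma 3.58.1 (R 4.3.3) on log2(FPKM + 1). The model had 1 mean per group over all 6 libraries with 3 residual degrees of freedom, and eBayes used a trend of variance on mean level. Tests were two-sided, with Benjamini-Hochberg adjustment across all genes tested. The log2(FPKM + 1) scale understates the change of low genes. Replicate numbers did not pair the libraries (correlations of deviations -0.056 to 0.061). Scripts were tested on simulated data. Sequences were read from RefSeq promoters and GENCODE transcripts.

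The members and lists were chosen with earlier results of these data known. By rule, values in each library are given for MYC, for members called with a log2 fold change of 0.4 or more in size or in opposite directions, and for the highest and lowest mean; NOP56, DKC1, EBNA1BP2 and NCL were added after their values were seen. Every other member is named with its change, and at most 2 called genes per direction from each other list, with MXD1 added.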

Additional observations from a re-analysis of the deposited data

Results flagged for a closer look

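For 12 members the effect of si-RAB23-9 differed from that of si-RAB23-1 by limma's direct test of the 2 groups (adjusted p under 0.05). Of these 11 were lower and 1 higher with si-RAB23-9, where 9.89% of all genes tested were called lower and 11.1% higher. The differences, si-RAB23-9 minus si-RAB23-1 on the log2 scale, were -0.84 for DDX21, -0.54 for ODC1, -0.52 for MYC, -0.47 for RRP12, -0.34 for PNO1, -0.33 for NOP16 and -0.32 for DDX18. They were -0.29 for EBNA1BP2, -0.25 for HEATR1, -0.24 for UTP20 and -0.21 for PES1, and 0.24 for TCOF1. DDX21, ODC1, RRP12 and EBNA1BP2 passed in all 6 fits with 1 library left out. RAB23 itself differed between the siRNAs by 0.11, which did not pass (limma adjusted p = 0.383). It was at 1.03 and 1.10 FPKM with si-RAB23-1 and at 1.18 and 1.27 with si-RAB23-9, on 84 to 120 reads. At such levels the log2(FPKM + 1) scale understates a difference, so equal depletion of RAB23 is not shown.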

How the results depend on the processing

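The direction of every call held under all 16 alternatives, and only uncalled changes turned sign (21 of 2103 pairs of gene and setting). The number of members called higher with si-RAB23-1 (22) was 13 with no filter on low values, where the share over all genes fell from 8.13% to 1.54%. With si-RAB23-9 (6) it was 12 where a mean of 5 FPKM was required, and 12 and 11 by voom on recovered reads with library totals and with median-of-ratios sizes, where 16.05%, 13.0% and 12.6% of all genes were called higher, against 7.56%. Between the siRNAs, 2 members instead of 1 were higher by voom with library totals (18.8% of all genes, against 11.1%), and 7 instead of 11 were lower with no filter (1.95%, against 9.89%). With 1 library left out in turn, the count ranged from 5 to 25 for higher and stayed at 0 for lower with si-RAB23-1. For si-RAB23-9 it ranged from 2 to 7 for higher and from 0 to 1 for lower, and between the siRNAs from 0 to 1 for higher and from 4 to 14 for lower. These fits have 2 residual degrees of freedom and assume that the lone library varies like the other groups. A replicate block, although the numbers share only a name, gave 19 higher with si-RAB23-1, 4 higher and 1 lower with si-RAB23-9, and 1 higher and 9 lower between the siRNAs. The cause of these differences was not tested. With 2 libraries per group, a member that did not pass is not shown to be unchanged.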

Other observations

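Genes of further lists were also compared between the siRNAs, with no test of a list. Of 22 tested genes of the MYC network 6 had higher and 1 had lower levels in the si-RAB23-9 libraries than in those of si-RAB23-1, with MXD4 higher by 0.70 and AURKA by 0.38, and FBXW7, which encodes a ubiquitin ligase subunit that marks MYC for degradation, lower (-0.31). Among other 60S genes 2 of 52 were higher and 11 lower, including URB1 (-0.49) and the export adaptor gene NMD3 (-0.46). In the list of other small subunit genes 0 of 43 were higher (also 0 at an unadjusted p under 0.05 and by voom) and 8 lower, with NOL6 at -0.52 and FCF1 at -0.38. Of 17 exosome and trimming genes 1 was higher (ERI1, 0.74) and 5 lower, including XRN2 (-0.37). Other RNA polymerase I genes had 0 of 19 higher (2 at an unadjusted p under 0.05, 1 by voom) and 2 lower, and snoRNP assembly and host genes 0 of 24 higher (2 and 1 likewise) and 1 lower. Of 47 MYC targets outside the nucleolus 4 were higher and 9 lower, and of 17 genes reported as repressed by MYC 5 were higher and 5 lower. Over all genes tested by limma 11.1% were called higher and 9.89% lower.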
